A study of Mus musculus with 6 samples.

Results

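The transcripts described here are 10 genes that pass signals from immune receptors into the cell, read from a table of 21761 genes measured in mouse long-term haematopoietic stem cells, LT-HSCs. They are the transmembrane adaptors Lat2, Lat, Lax1, Pag1 and Lst1, the kinases Lyn and Syk, the phospholipase Plcg2, the adaptor Grb2, and Tespa1. All 10 were found by symbol and all 10 passed the filter on low counts. They were chosen by symbol with earlier results of these data known. Lat2, Tespa1 and Lst1 were selected on their measured counts in the same 6 libraries, where they had been seen to differ between the genotypes, so their differences are given as a description with no test. The other 7 were listed for their role beside these 3 and were tested.

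The cells were donor-derived (CD45.2+) LT-HSCs with the surface phenotype LSK CD150+ CD48- CD34-, taken from irradiated CD45.1/2 hosts transplanted with whole marrow. IMP1 donors had the genotype Rosa26 I/+;Mx1-Cre tg/+, in which Cre switches on the RNA-binding protein IMP1 from the Rosa26 locus, and Control donors were Rosa26 +/+;Mx1-Cre tg/+. Both groups carried Mx1-Cre, an interferon-responsive Cre that also acts outside stem cells, and both received poly(I:C), which sets off an interferon response. Cells were sorted 8 weeks after the last injection, 200 per library, with 3 libraries per genotype described as biological replicates. Neither the age of the animals nor the number of hosts behind a library is given in the sources used here.

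Antigen and Fc receptors have no enzyme of their own. Src-family kinases such as Lyn phosphorylate tyrosine motifs (ITAMs) on receptor chains, Syk docks there, and the pair phosphorylates membrane adaptors of the LAT type. Phosphorylated adaptors gather Grb2, which leads to Ras, and phospholipase C gamma, which leads to calcium and protein kinase C. LAT2, also called NTAL or LAB, serves B cells, mast cells and myeloid cells, whereas LAT is best known from T cells, mast cells and platelets. Pag1 and Lax1 encode adaptors that dampen the same signals.

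Control libraries held 25749898 to 27338450 counts and IMP1 libraries 50220629 to 67083116, on average 2.26 times as many, so depth moved with genotype. Igf2bp1, the gene that encodes IMP1, was counted 0, 0 and 1 times in Control 1 to 3 and 1870, 2084 and 2016 times in IMP1 1 to 3, which matches the labels. All 10 LT-HSC markers examined (among them Procr, Slamf1, Kit and Hlf) had counts in every library. Markers of some other cells stood out in single IMP1 libraries. IMP1 1 held the red-cell transcript Car1, also present in IMP1 3 at 14.5 CPM, at 147 CPM (counts per 1000000, after TMM scaling of library size). IMP1 2 held the early B-lineage transcripts Cd79a at 16.9, Ebf1 at 14.2 and Igll1 at 33.2 CPM. Car1, Cd79a, Ebf1 and Igll1 were at most 0.0396 CPM in the Control libraries. Vpreb1, also of the B cell list, had 0, 2.41 and 4.16 CPM in Control 1 to 3 and 1.76, 2.35 and 0 CPM in IMP1 1 to 3. In the T cell list Cd2 and Cd3g had 0 counts in all 6 libraries, in the B cell list Ms4a1 and Pax5, and in the NK cell list Ncr1 and Gzma. The summed T cell markers were 2.52 to 4.83 CPM in Control and 1.59 to 11.2 CPM in IMP1 libraries, the highest in IMP1 3, where Cd4 stood at 6.07 CPM against 0 counts in the other 5 libraries. The NK cell list summed to 0.317 to 5.88 CPM in Control and 11.9 to 34.3 CPM in IMP1 libraries, nearly all of it Klrb1c.

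Lat2 (Entrez gene 56743) stood at 46.8, 46.1 and 40.4 CPM in the Control libraries and at 6.73, 6.62 and 9.81 CPM in the IMP1 libraries. Every IMP1 library lay below every Control library, and within each genotype the libraries were close together. The means were 44.4 ± 3.50 and 7.72 ± 1.81 CPM (SD, n = 3), a level 5.76-fold lower in IMP1 cells and a log2 fold change of −2.53 (SE 0.29). In bulk samples such as these, fewer cells holding a transcript and less of it per cell cannot be told apart. The raw counts went the same way despite the deeper IMP1 libraries, at 1247, 1164 and 1010 in Control against 429, 459 and 509 in IMP1. By level in Control cells, Lat2 ranked above 65.1% of the 12807 genes tested. Of its nearest genes in the reference order, Rfc2, a subunit of the DNA clamp loader, stood at 331 ± 20.2 against 188 ± 38.3 CPM (edgeR adjusted p = 0.0831), and Eif4h, a translation initiation factor, at 147 ± 16.9 against 143 ± 34.2 CPM (adjusted p = 0.946).

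Tespa1 (Entrez gene 67596) was the most extreme of the 10. It encodes a cytosolic protein that couples the T cell receptor to the inositol trisphosphate receptor, and it has also been described as a partner of LAT and LAT2 in mast cells. Its counts were 280, 101 and 211 in the Control libraries and 0 in each of the 3 IMP1 libraries. In Control cells this was 10.5, 3.997 and 8.45 CPM, a mean of 7.65 ± 3.33 CPM, with Control 2 lowest. A floor of 3 counts over the 3 IMP1 libraries together is 0.0162 CPM, and the Control mean lay at least 471-fold above it. This figure leaves out the spread between the Control libraries, of which Control 2 stood at 3.997 CPM. The floor accounts for counting error alone, because copies made by amplification were not collapsed to molecules. Of its neighbours in the reference, Neurod4 had 0 counts in Control 1 to 3 and 5.12, 0 and 0.0193 CPM in IMP1 1 to 3, and Vmn2r84 was at most 0.560 CPM in any library. Itprid2, a relative of Tespa1 that also binds the inositol trisphosphate receptor, stood at 41.2 ± 21.3 against 28.7 ± 10.8 CPM (adjusted p = 0.652). The other relative, Itprid1, had 0 counts in the Control libraries and at most 0.0471 CPM in any IMP1 library.

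Lst1 (Entrez gene 16988) went the other way. It encodes a small myeloid membrane adaptor of the major histocompatibility region, known for recruiting SHP phosphatases. Its level was 21.2, 20.6 and 19.1 CPM in the Control libraries and 61.0, 60.3 and 62.6 CPM in the IMP1 libraries. The libraries of each genotype were nearly equal, and the groups were far apart, with means of 20.3 ± 1.12 and 61.3 ± 1.16 CPM, a 3.02-fold higher level in IMP1 cells (log2 fold change 1.59, SE 0.20). Its neighbours were Ltb, a lymphotoxin gene, at 22.7 ± 8.63 against 28.5 ± 6.91 CPM (adjusted p = 0.733), and Aif1, a macrophage calcium-binding protein gene, at 0.939 ± 0.955 against 3.19 ± 1.41 CPM (adjusted p = 0.561). The log2 fold change of Aif1 was 1.76, and over 15 alternatives it ranged from 1.2 to 2.86, the latter without Control 2. Aif1 was higher in every IMP1 library than in every Control library, but only narrowly, with IMP1 3 at 1.98 CPM and Control 2 at 1.94 CPM. The plot of all 10 transcripts by library shows these 3 patterns beside the 7 other genes.

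**Figure D1:**
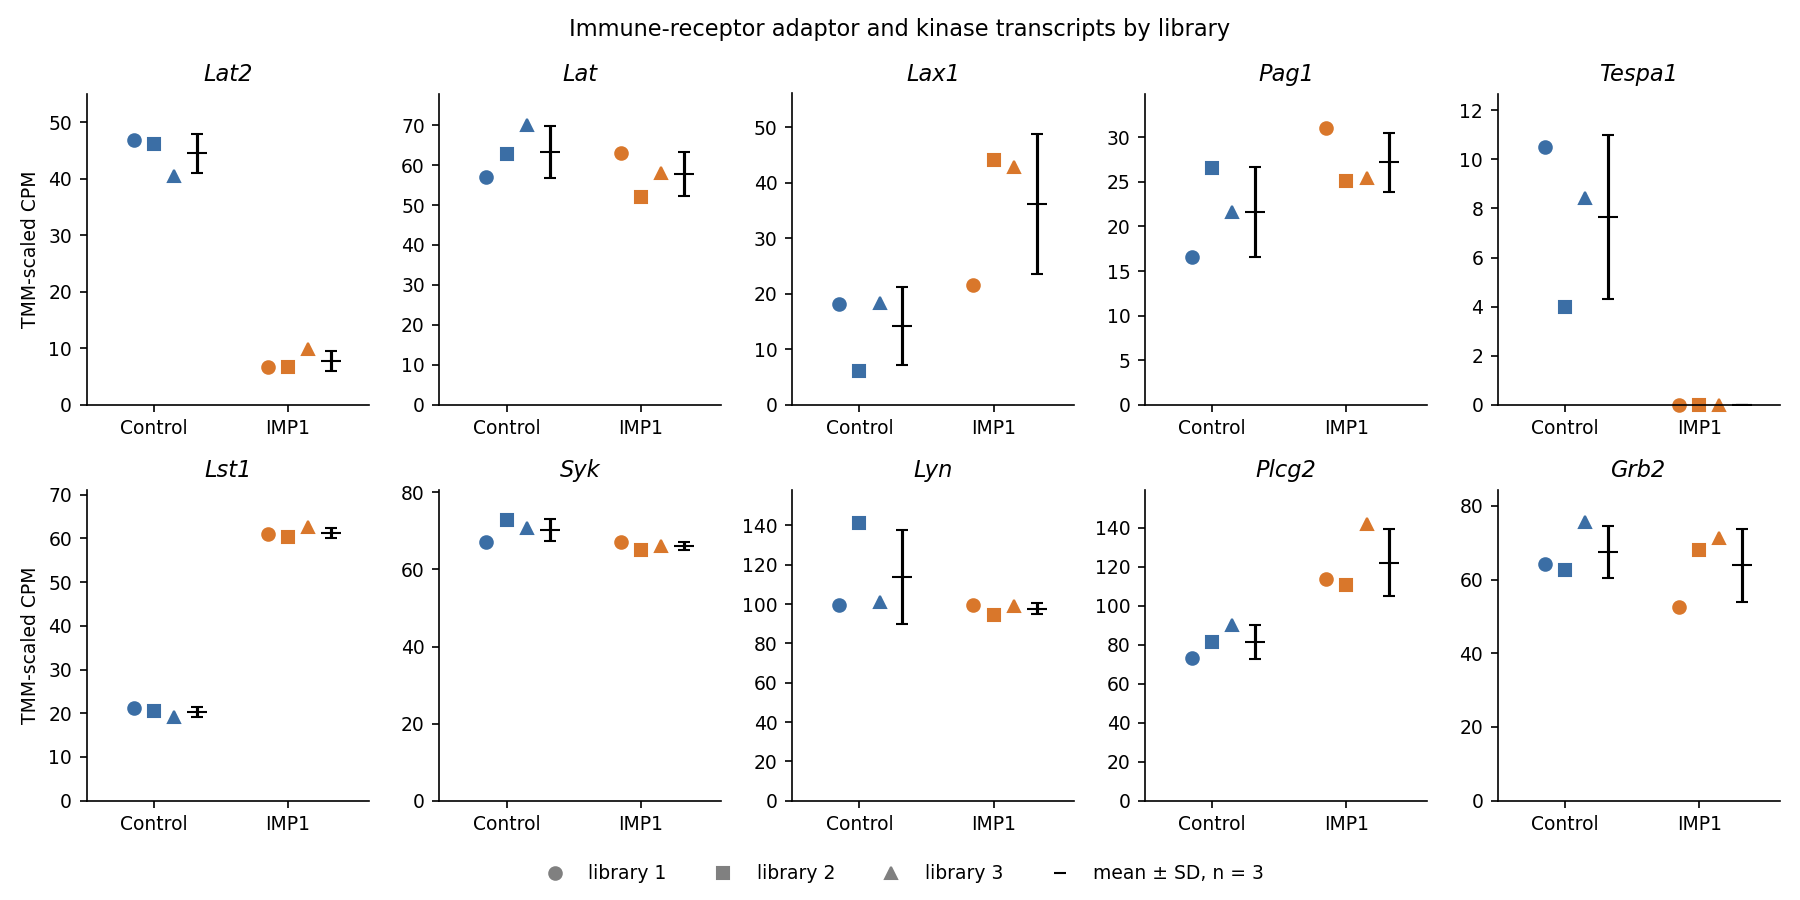
Each panel plots the TMM-scaled CPM of 1 gene in the 3 Control (blue) and 3 IMP1 (orange) libraries, with the mean ± SD in black and each axis starting at 0. Lat2 and Tespa1 lie lower and Lst1 higher in all 3 IMP1 libraries, with Tespa1 at 0 counts in each, while Lat, Pag1, Lyn and Grb2 overlap between the genotypes.

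None of the 3 remaining LAT-type and inhibitory adaptors passed the test. Lat (Entrez gene 16797), its closest functional relative, had 57.1, 62.8 and 70.0 CPM in Control and 63.0, 52.1 and 58.0 CPM in IMP1 libraries. The groups overlapped, and the log2 fold change was −0.13 with a 95% interval of −0.55 to 0.29 (edgeR adjusted p = 0.804). Pag1 (Entrez gene 94212), which anchors the inhibitory kinase Csk in the membrane, had 16.5, 26.6 and 21.7 CPM in Control and 31.0, 25.1 and 25.5 CPM in IMP1 libraries. These also overlapped, at a log2 fold change of 0.33 (interval −0.33 to 1.00, adjusted p = 0.662). Lax1 (Entrez gene 240754), an adaptor of lymphocytes that dampens antigen-receptor signals, had 18.2, 6.02 and 18.3 CPM in Control and 21.6, 44.1 and 42.9 CPM in IMP1 libraries. All 3 IMP1 libraries lay above all 3 Control libraries, although IMP1 1 exceeded the highest Control library only narrowly. The log2 fold change was 1.35 (SE 0.48, interval 0.24 to 2.46), which did not pass (adjusted p = 0.270). Lax1 is also a lymphocyte gene. IMP1 2 held Cd79a, Ebf1 and Igll1, and IMP1 3 held 0 counts of these and the Cd4 signal given above. The part of lymphoid cells in the level of Lax1 was not tested.

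Neither kinase next to the receptor passed the test. Syk (Entrez gene 20963) had 67.2, 72.8 and 70.7 CPM in Control and 67.2, 64.9 and 66.2 CPM in IMP1 libraries. The highest IMP1 value, 67.18, lay just under the lowest Control value, 67.25, so the groups met without overlapping, and the log2 fold change was −0.09 (interval −0.45 to 0.27, adjusted p = 0.857). Lyn (Entrez gene 17096), the Src-family kinase that phosphorylates ITAMs in B cells and mast cells, had 99.5, 141 and 101 CPM in Control and 99.6, 94.3 and 98.8 CPM in IMP1 libraries. Its groups overlapped and the single high value was Control 2 (log2 fold change −0.22, interval −0.62 to 0.18, adjusted p = 0.624). Lyn overlaps 6330407A03Rik in the reference, and because the strand setting of the counts is not known, the 2 genes may share reads.

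Downstream of the adaptors, Plcg2 (Entrez gene 234779), the phospholipase that makes inositol trisphosphate in B cells and myeloid cells, had 73.0, 81.2 and 90.2 CPM in Control and 114, 111 and 142 CPM in IMP1 libraries. The groups did not overlap. Its log2 fold change of 0.58 (SE 0.16, interval 0.21 to 0.96) did not pass over all genes (adjusted p = 0.171). Grb2 (Entrez gene 14784), which links phosphorylated adaptors to Ras, had 64.2, 62.7 and 75.6 CPM in Control and 52.6, 68.0 and 71.2 CPM in IMP1 libraries, which overlapped (log2 fold change −0.08, interval −0.52 to 0.36, adjusted p = 0.899).

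Of these 7 tested genes, 0 passed the edgeR threshold of an adjusted p under 0.05, a threshold that 0.211% of the 12807 genes passed. Plcg2 and Lax1 had an unadjusted p under 0.05, which 14.3% of all genes had. DESeq2 called 1 of the 7, Plcg2 (adjusted p = 0.0377), where it called 5.55% of the genes to which it gave an adjusted p, and limma-voom called 0. Over 16 alternatives the adjusted p of Plcg2 ranged from 0.0377 to 0.362. The groups did not overlap for 3 of the 7, Plcg2, Lax1 and Syk, against 21.9% of all tested genes. The plot of log2 fold changes gives the interval of each.

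**Figure D2:**
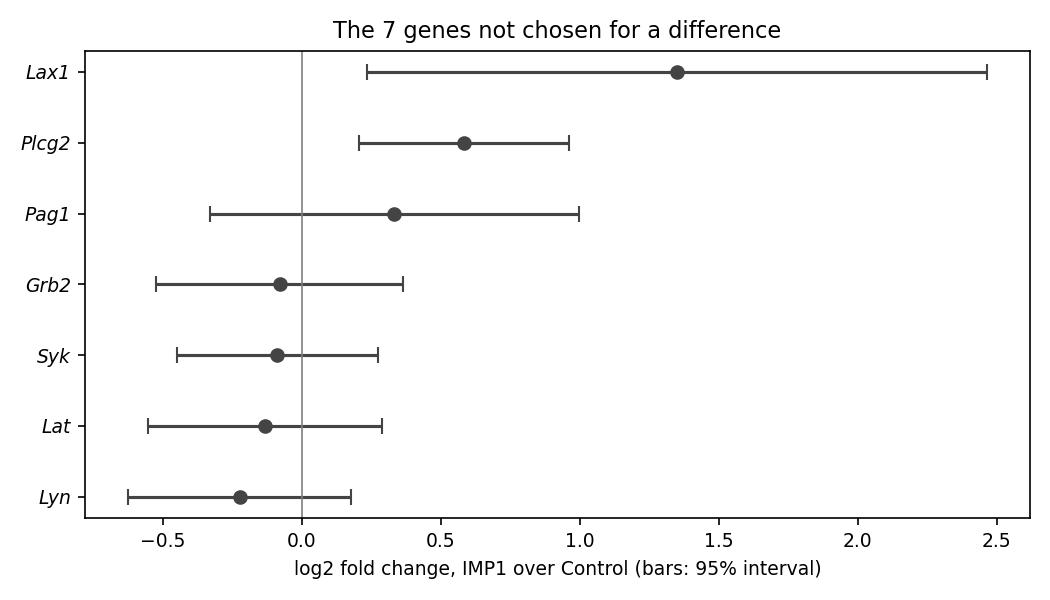
Points give the edgeR log2 fold change of IMP1 over Control for the 7 tested genes and bars the 95% interval. The intervals of Plcg2 and Lax1 lie above 0, and those of the other 5 span it, though neither Plcg2 nor Lax1 passed after adjustment over all genes.

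Levels of different genes were compared per kilobase of the longest annotated transcript, which may not be the one present in these cells. On that scale the order in Control cells, from the highest, was Lst1 at 48.9 ± 2.70, Lyn at 32.9 ± 6.87, Lat at 30.8 ± 3.15, Lat2 at 25.9 ± 2.04, Grb2 at 24.9 ± 2.61, Plcg2 at 19.0 ± 2.00, Syk at 13.1 ± 0.520, Lax1 at 6.15 ± 3.07, Tespa1 at 3.31 ± 1.44 and Pag1 at 2.62 ± 0.609 CPM per kb (SD, n = 3). The libraries of Lyn and Lat overlapped, as did those of Lat2 and Grb2, of Lax1 and Tespa1, and of Tespa1 and Pag1. In IMP1 cells Lst1 led at 148 ± 2.80 CPM per kb, followed by Plcg2 at 28.4 ± 3.95, Lyn at 28.2 ± 0.825 and Lat at 28.1 ± 2.66, which lay within their spread. Grb2 followed at 23.6 ± 3.67, Lax1 at 15.7 ± 5.48, Syk at 12.3 ± 0.209, Lat2 at 4.50 ± 1.05 and Pag1 at 3.30 ± 0.4003 CPM per kb, with Tespa1 at 0. The libraries of Lat and Grb2 overlapped, as did those of Lax1 and Syk, and those of Lat2 and Pag1 were apart only narrowly. The longest annotated transcript of Lst1 is 415 bases, the shortest of the 10.

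The ratio of Lat2 to Lat did not overlap between the genotypes. In Control libraries the level of Lat2 per kb was 0.982, 0.878 and 0.691 times that of Lat, and in IMP1 libraries it was 0.128, 0.152 and 0.202 times. Of the summed level per kb of Lat2, Lat, Lax1 and Pag1, Lat2 made up 34.5% to 42.4% in the Control libraries and 7.51% to 10.3% in the IMP1 libraries. Lax1 made up 4.12% to 12.1% in Control and 19.6% to 37.1% in IMP1 libraries. The sum itself was 63.2 to 68.2 CPM per kb in Control and 47.7 to 55.6 CPM per kb in IMP1 libraries. These shares use the same comparison that led to the choice of Lat2 and are a description.

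**Figure D3:**
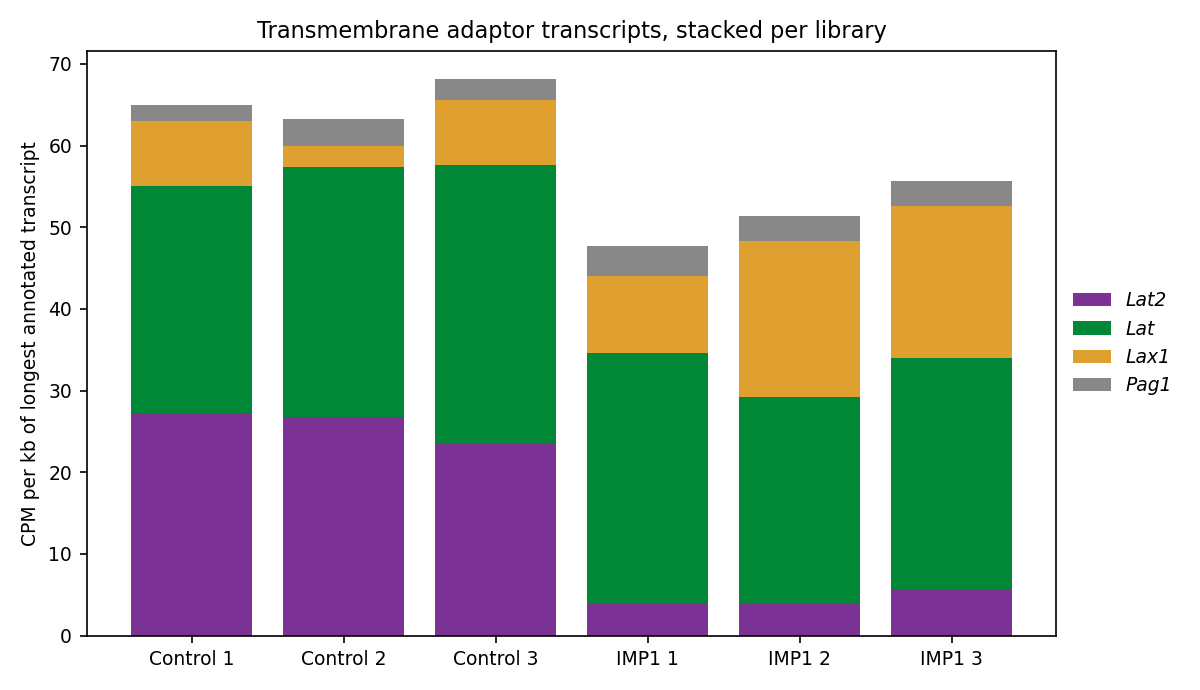
Stacked bars give the level of Lat2, Lat, Lax1 and Pag1 in each library, in CPM per kb of the longest annotated transcript. Lat2 makes up 34.5% to 42.4% of the bar in Control libraries and 7.51% to 10.3% in IMP1 libraries, while the Lat portion is of similar height in all 6.

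Promoter sequence was available for 5 of the 10 genes in the RefSeq promoter table of GRCm38.p6, a build other than the mm9 named by the submitters. Lat2, Pag1, Tespa1, Lst1 and Lyn had no entry. The 250 bases before the first listed start are shown for Plcg2 and Lax1, the 2 tested genes with the lowest p. They are also shown for Lat, an adaptor whose groups overlapped. Capitals mark matches on either strand to letters typical of 3 blood-cell regulators, GAGGAAGT for PU.1, AGATAA for GATA factors and TGTGGT for RUNX factors. These 3 strings do not overlap one another in the windows shown.
Plcg2, chr8:117498025-117498274, plus strand: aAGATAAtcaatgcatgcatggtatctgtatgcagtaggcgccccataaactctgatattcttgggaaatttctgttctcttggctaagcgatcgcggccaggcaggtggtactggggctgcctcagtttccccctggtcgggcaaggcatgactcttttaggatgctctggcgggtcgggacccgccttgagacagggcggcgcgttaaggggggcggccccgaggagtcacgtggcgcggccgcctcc
Lax1, chr1:133690109-133690358, minus strand: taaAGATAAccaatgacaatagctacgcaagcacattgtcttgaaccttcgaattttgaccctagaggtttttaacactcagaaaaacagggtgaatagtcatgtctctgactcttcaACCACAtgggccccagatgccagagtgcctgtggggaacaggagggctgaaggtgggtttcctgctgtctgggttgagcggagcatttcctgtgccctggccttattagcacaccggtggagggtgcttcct
Lat, chr7:126369569-126369818, minus strand: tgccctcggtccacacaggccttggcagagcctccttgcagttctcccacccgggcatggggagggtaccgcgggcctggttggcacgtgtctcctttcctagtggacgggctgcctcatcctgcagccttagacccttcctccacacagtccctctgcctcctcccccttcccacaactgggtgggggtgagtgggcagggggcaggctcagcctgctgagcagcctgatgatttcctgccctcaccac
Plcg2 held 1 GATA match, Lax1 held 1 GATA and 1 RUNX match, and Lat held 0 matches. Of 32817 promoter windows of the same length, 9.99% held the GATA letters, 14.0% the RUNX letters and 2.44% the PU.1 letters. A match describes the letters only.

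Around the 10 genes, 118 further genes of the pathway were listed by role, and 93 were tested. Of these, 1 passed the edgeR threshold over all genes, against 0.0703% of all genes passing upward and 0.141% downward, and their median log2 fold change was 0.15, against 0.03 over all tested genes. The groups did not overlap for 19 of the 93, beside 21.9% of all tested genes. Of the 93, 14 (15.1%) had an unadjusted p under 0.05, 4 of them higher and 10 lower in IMP1, beside 14.3% of all genes. Over all 12807 tested genes, 854 were higher and 977 lower at that threshold. DESeq2 called 5 of the 93, beside 5.55% of the genes to which it gave an adjusted p, and limma-voom 0.

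Among receptor chains and the receptors linked to them, 0 of 9 tested genes passed by edgeR, by DESeq2 or by limma-voom, while Fcer1a, Fcgr2b and Hcst, all lower, had an unadjusted p under 0.05, as did 14.3% of all genes (median log2 fold change of the list 0.22). Fcer1a, the ligand-binding chain of the high-affinity IgE receptor that signals through Lat2 in mast cells, had 34.7, 24.3 and 21.3 CPM in Control and 2.37, 0 and 0 CPM in IMP1 libraries. The groups did not overlap, and the whole IMP1 signal came from IMP1 1. The log2 fold change of −5.07 (SE 1.72) did not pass (edgeR adjusted p = 0.246). Over 15 alternatives the adjusted p ranged from 0.0272 to 0.399 and the log2 fold change from −13.05 to −4.49. The value of −13.05 (adjusted p = 0.0379) came without IMP1 1, which sets Control against a group at 0 counts and gives no size of the difference. Fcer1g, the ITAM chain shared by Fc receptors, stood at 28.7 ± 11.5 against 28.0 ± 4.36 CPM (adjusted p = 0.979). The B cell receptor chain gene Cd79b, the most abundant of the list, stood at 75.2 ± 8.92 against 88.0 ± 15.2 CPM (adjusted p = 0.643), in libraries where Ms4a1 and Pax5 had 0 counts.

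Of the other tyrosine kinases, 0 of 8 tested passed by edgeR, DESeq2 or limma-voom, and 0 had an unadjusted p under 0.05 (median −0.19). Over all tested genes, 0.211% passed by edgeR and 14.3% had an unadjusted p under 0.05. DESeq2 called 5.55% of the genes to which it gave an adjusted p. Btk, a kinase of B cell and mast cell receptors, stood at 110 ± 36.6 against 96.9 ± 23.4 CPM (adjusted p = 0.821). Csk, which holds Src-family kinases inactive and docks on Pag1, stood at 85.1 ± 6.28 against 62.8 ± 12.4 CPM (adjusted p = 0.368), and the Src-family kinase Yes1 at 6.80 ± 4.07 against 17.8 ± 13.8 CPM (adjusted p = 0.418). The mean of Yes1 in IMP1 cells rested on IMP1 2 at 33.6 CPM, and without that library its log2 fold change was 0.55 in place of 1.39.

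Of 29 tested adaptors besides the 10 genes, 0 passed by edgeR (median 0.18). DESeq2 called 3, beside 5.55% of the genes to which it gave an adjusted p, and limma-voom 0. Skap1 (higher) and Skap2, Clnk, Fyb, Dok1 and Dok2 (lower) had an unadjusted p under 0.05, as did 14.3% of all genes. The 3 called by DESeq2 were Skap2, Clnk and Fyb, all lower. Skap2, an adaptor of integrin signalling and the most abundant of the list, had 329, 327 and 391 CPM in Control and 238, 211.5 and 211.3 CPM in IMP1 libraries, which did not overlap (log2 fold change −0.66, SE 0.12, edgeR adjusted p = 0.0733, from 4.24e-05 to 0.203 over 16 alternatives). Its partner Fyb, named after its values were seen, stood at 84.0 ± 2.11 against 50.8 ± 12.7 CPM (edgeR adjusted p = 0.192). Clnk, a mast cell relative of SLP-76 also named after its values were seen, had 3.42, 17.5 and 15.6 CPM in Control and 2.39, 1.72 and 1.68 CPM in IMP1 libraries, with Control 1 near the IMP1 range (log2 fold change −2.66, SE 0.70, edgeR adjusted p = 0.145). Lcp2, which encodes SLP-76 and joins LAT to phospholipase C gamma, stood at 219 ± 15.6 against 230 ± 35.2 CPM (adjusted p = 0.866). Skap1, the T cell relative of Skap2, stood at 1.43 ± 1.22 against 8.07 ± 3.78 CPM (adjusted p = 0.317). Its log2 fold change was 2.49, or 3.18 without Control 3 and 1.95 without Control 2.

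Of 30 tested effectors further downstream, 1 was called higher and 0 lower by edgeR (median 0.20), beside 0.0703% and 0.141% of all genes. DESeq2 called 1, the same gene, beside 5.55% of the genes to which it gave an adjusted p, and limma-voom 0. An unadjusted p under 0.05 was found for 3, of which 2 were higher and 1 lower, beside 14.3% of all genes. Pik3r1, a regulatory subunit of PI3-kinase whose difference was already known when the lists were made, so that its call is not independent evidence, had 78.6, 75.7 and 68.9 CPM in Control and 164, 211 and 176 CPM in IMP1 libraries. The groups did not overlap, and the log2 fold change was 1.30 (SE 0.15, edgeR adjusted p = 0.0287). Its call was lost whichever of the 6 libraries was left out (adjusted p from 0.0762 to 0.162). It was also lost with limma-voom (adjusted p = 0.0638), and in edgeR with the replicate number as a block (0.109) or a length and GC trend removed (0.0644). It held in 7 of 16 alternatives. Itpr2, an inositol trisphosphate receptor of the kind to which Tespa1 binds, had 9.24, 7.60 and 10.8 CPM in Control and 4.91, 1.90 and 0.482 CPM in IMP1 libraries. Its log2 fold change was −1.92 (SE 0.83, adjusted p = 0.347), or −2.94 without IMP1 1 and −1.43 without IMP1 3. Dgkz, which removes the diacylglycerol that phospholipase C makes, stood at 88.0 ± 15.6 against 83.0 ± 14.6 CPM (adjusted p = 0.899).

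Of 16 tested inhibitory phosphatases and receptors, 0 passed by edgeR, 2 had an unadjusted p under 0.05 (1 higher, 1 lower), beside 14.3% of all genes, and the median was 0.10. DESeq2 called 1, beside 5.55% of the genes to which it gave an adjusted p, and limma-voom 0. The gene DESeq2 called was Cd72, an inhibitory receptor of B cells, at 63.9, 76.3 and 84.0 CPM in Control and 34.0, 21.5 and 42.4 CPM in IMP1 libraries. The groups did not overlap (log2 fold change −1.19, SE 0.28, edgeR adjusted p = 0.110, from 0.00234 to 0.290 over 16 alternatives). Ptpn6, which encodes the phosphatase SHP-1, stood at 299 ± 53.9 against 321 ± 56.2 CPM (adjusted p = 0.846), and Ptprc, which encodes CD45, at 272 ± 42.1 against 334 ± 63.7 CPM (adjusted p = 0.495). Cd300lf was low throughout, at 0.364 ± 0.0391 against 1.62 ± 1.33 CPM (adjusted p = 0.348), and its log2 fold change of 2.15 was 1.22 without IMP1 1.

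**Figure D4:**
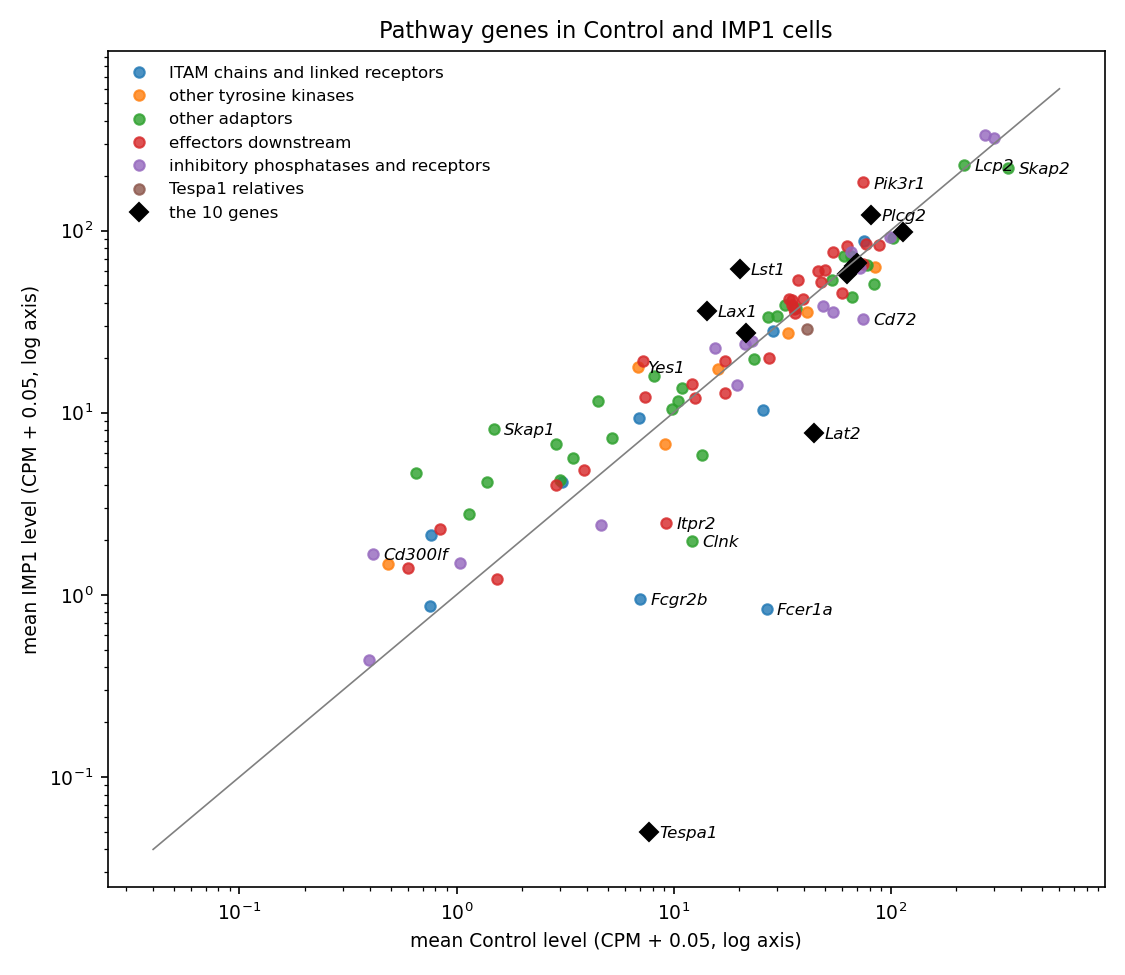
Each circle is 1 of the 93 tested pathway genes, coloured by list, and black diamonds are the 10 genes, with the mean level in Control on the x axis and in IMP1 on the y axis, both as CPM plus 0.05 on log axes, and the line marking equal levels. The labelled genes include Lat2, Fcer1a, Clnk and Tespa1 below the line and Lst1, Lax1 and Pik3r1 above it.

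Among markers of mast cells and basophils, Fcer1a alone was lower in every IMP1 library than in every Control library. The groups did not overlap, in either direction, for 21.9% of all tested genes. Of 8 mast cell and basophil markers listed, 7 were in the table and 5 had a count in any library. Their summed level was 36.0 to 45.0 CPM in Control and 2.45 to 14.7 CPM in IMP1 libraries, most of it Fcer1a and Cpa3. The mast cell proteases Cma1 and Mcpt4 were at 0 in all 6 libraries, and Ms4a2, Mcpt8 and Prss34 were at 0 in the IMP1 libraries and seen in Control 1 alone, at 1.09, 1.35 and 0.0751 CPM. Cpa3 overlapped between the genotypes, at 7.74, 13.6 and 14.7 CPM in Control 1 to 3 and 0.377, 14.7 and 2.45 CPM in IMP1 1 to 3. The summed level of neutrophil and monocyte markers was also lower, at 691 to 818 CPM in Control and 473 to 525 CPM in IMP1 libraries. Most of it was Lyz2 and Prtn3, which, like Mpo, were lower in every IMP1 library than in every Control library. Not every member of the list moved this way. Elane, Ctsg and Itgam overlapped between the genotypes, and Itgam had the higher mean in IMP1 libraries, at 2.57 against 1.54 CPM. Csf1r was at 0 in IMP1 libraries and in Control 2, and at 0.113 and 1.88 CPM in Control 1 and 3. Mpo, of the same list, had 25.3, 7.40 and 0.360 CPM in Control and at most 0.0314 CPM in IMP1 libraries. Red-cell markers had a summed level of 35.3 to 42.8 CPM in Control and 69.6 to 305 CPM in IMP1 libraries. The part of these cells in the levels of Lat2, Tespa1, Lst1 and Fcer1a was not tested.

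**Figure D5:**
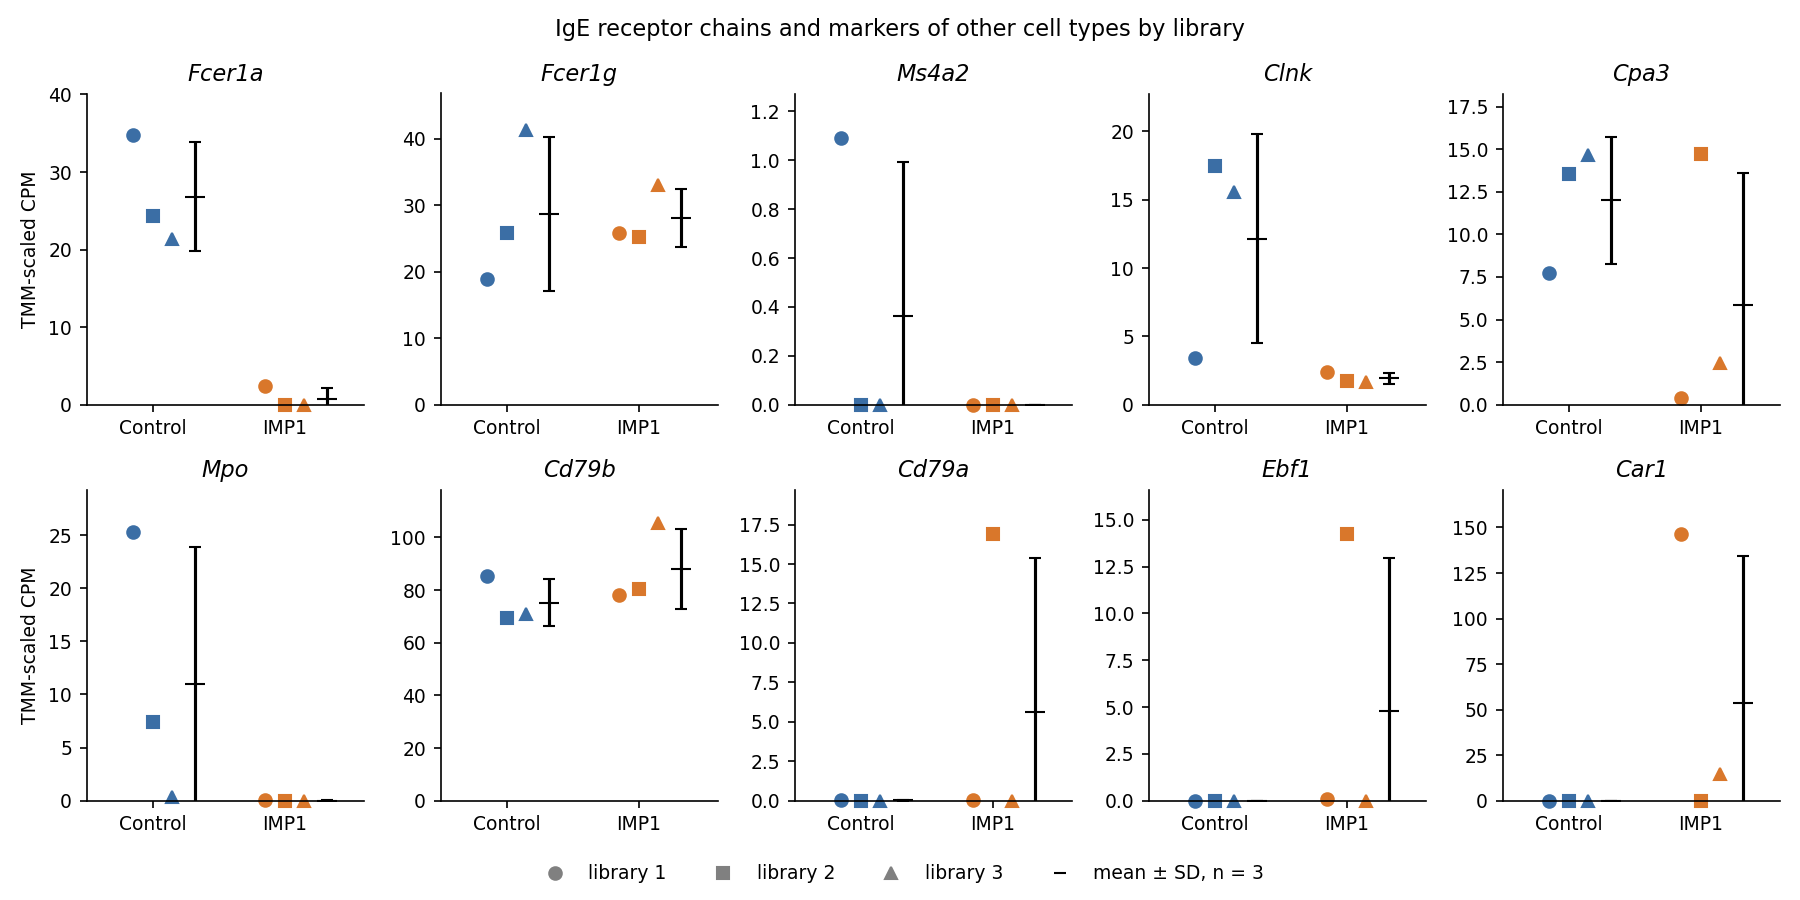
Panels plot TMM-scaled CPM by library for IgE receptor chains, Clnk and markers of other cell types, with the mean ± SD in black, bars cut at 0. Fcer1a is at 21.3 CPM or more in each Control library and at most 2.37 CPM in IMP1 libraries, while Cd79a and Ebf1 stand out in IMP1 2 and Car1 in IMP1 1.

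Over the 6 libraries the genes of at least 3 log2 CPM whose profiles were most like that of Lat2 were Acat1 (Pearson r = 0.998), Gm2a (0.998) and AI413582 (0.995). For Tespa1 they were Ppib (0.999), Timm17b (0.999) and Nop16 (0.997), and for Lst1 Nufip2 (0.999), Zfyve26 (0.993) and Serpinf1 (0.992). Each r is a description over 6 points that fall into the 2 genotypes, among 9061 genes, and ignores the size of the change. Acat1, an acetyl-CoA acetyltransferase gene of mitochondria, stood at 281 ± 5.96 against 183 ± 8.37 CPM, while Gm2a, a lysosomal activator protein gene, stood at 474 ± 3.48 against 245 ± 29.0 CPM. Ppib, an endoplasmic reticulum cyclophilin gene, stood at 123 ± 3.44 against 87.7 ± 0.731 CPM, a far smaller difference than that of Tespa1.

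Across the alternatives that could be fitted, the log2 fold change ranged from −2.73 to −2.36 for Lat2 and from 1.55 to 1.73 for Lst1. These ranges describe the values that led to the choice of both genes and support nothing further.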

How the data were processed

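The table the authors deposited holds unnormalized read counts for 21761 Entrez identifiers in each of 6 libraries. The submitters' processing notes name TopHat2 2.0.10 and mm9 without saying what each did. The sources used here do not give the counter, gene models or strand setting. Symbols came from a RefSeq table of GRCm38.p6, which matched 21615 identifiers, and transcript lengths from GENCODE M21. Coordinates are printed only for the RefSeq promoters.

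All genes were fitted together with edgeR 4.0.16 in R 4.3.3 (quasi-likelihood F test, default settings, TMM scaling, filterByExpr, genotype as the single term), which left 12807 genes. Benjamini-Hochberg adjustment ran over all of them. Each standard error is the size of the log2 fold change over the root of F. P-values measure the spread between 3 libraries a group.

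Members and gene lists were chosen with earlier results of these data known. Named from each list were genes called, the 2 most abundant and the lowest p in each direction, besides all members, the 3 genes most alike in pattern to Lat2, Tespa1 and Lst1, and the neighbours of these. Alternatives were DESeq2 1.42.0, limma-voom (limma 3.58.1), other edgeR settings, scalings and filters, thinning to 25749898 counts, removal of a length and GC trend, the replicate number as a block, and each library left out. Tpsab1, Ly6g and Hba-a1 were not analysed here. Chi-square per degree of freedom was at least 62.9 between libraries, so none were duplicates.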

Additional observations from a re-analysis of the deposited data

How the results depend on the processing

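Over all genes, 27 passed with the edgeR fit, against 694 with DESeq2, 11 with limma-voom, 49 with the other legacy setting of edgeR, 16 without scaling beyond library totals, 103 with the strict filter of 10 counts in every library, 13 with the length and GC trend removed and 0 to 2 with 1 library left out. Without scaling the split was 9 higher and 7 lower, against 9 and 18, and the median of all genes moved from 0.03 to 0.12 on the log2 scale. Of the 7 tested genes, 0 passed in the edgeR fit and 1, Plcg2, with DESeq2. Of the pathway lists, 1 gene passed in the edgeR fit, 5 with DESeq2, 2 with the other legacy setting, 2 with the strict filter, 0 with limma-voom, 0 with the trend removed and 0 to 1 with a library left out. The cause was not tested.

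With the replicate number as a block, 4 genes passed over all genes and 0 of the pathway lists. Deviations of same-numbered libraries correlated at 0.037, 0.037 and 0.018 across 9061 genes, so the numbers were not taken to pair the samples.

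Direction changed for genes near 0. Without scaling, log2 fold changes became 0.01 for Syk, Grb2 and Dgkz, 0.06 for Fcer1g and 0.05 for Eif4h. With the trend removed they became 0.02 for Lat, 0.04 for Grb2, 0.16 for Fcer1g and 0.07 for Eif4h. Fcer1g was at 0.02 with limma-voom and 0.03 with the block. Leaving out 1 library gave up to 0.05 for Grb2 (from −0.16), up to 0.33 for Fcer1g (from −0.26), up to 0.08 for Btk (from −0.40), down to −0.03 for Lcp2 (up to 0.19), up to 0.05 for Dgkz (from −0.22), down to −0.03 for Ptpn6 (up to 0.23) and up to 0.14 for Eif4h (from −0.15). Tespa1 could not be fitted under the strict filter. Total counts differed with genotype. With totals thinned to 25749898 counts, 31 genes passed over all genes.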
